A study of Arabidopsis thaliana with 59 samples.

Results

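Rosette leaves of the Arabidopsis thaliana accession SQ-8 were compared between plants whose soil had been dried slowly and plants kept on wet soil, across all loci on the array. An accession is a natural inbred line. The comparison used the 6 arrays whose titles name SQ-8 leaves (3 dry, 3 wet) of 59 arrays in the series, and dry and wet arrays were paired by their replicate number, which is taken to mark a shared harvest condition. The series crossed 10 accessions that flower as spring annuals (SQ-8, Col, Ler, Bur-0, Ws-2, NFA-10, KNOX-18, CIBC-17, Ts-1 and HR-5) with the same pair of watering levels. SQ-8 dry plants were brought down day by day, by weighing and adding water, until about 50% of the pot's available water remained on day 5. SQ-8 wet plants were handled in the same way but stayed near 90%. Plants of both groups, and of the other 9 accessions, grew singly in pots of about 150 ml, in light of 330 µmol m-2 s-1 for 10 h a day, at 23 C in the light and 18 C in the dark and 60% relative humidity. Drying was kept slow so that whole growing plants had time to acclimate, and the design text calls it mild. Values are on the log2 scale as deposited, and 1 unit is a doubling.

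As background, drying soil raises abscisic acid (ABA) in leaves; its receptors block the PP2C phosphatases, which frees SnRK2 kinases to switch on genes for dehydrins, other protective proteins and stress transcription factors. Jasmonate is made from membrane lipids after wounding and other stresses, and its receptor COI1 marks the JAZ repressors for breakdown, while the JAZ genes are themselves among its first targets. Salicylate, which builds up in leaves attacked by pathogens, acts through NPR1 and raises pathogenesis-related genes such as PR1, and the lipase-like proteins EDS1 and PAD4 act upstream of it.

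Drying moved many loci in SQ-8 leaves in both directions, with jasmonate, salicylate defence and low-oxygen response genes among the largest rises, dehydration genes also higher, and genes for nitrogen assimilation and transport and a copper/zinc superoxide dismutase among the largest falls. Of 20728 loci, 1803 (8.7%) differed between dry and wet SQ-8 leaves at a limma adjusted p under 0.05, with 820 higher (3.96%) and 983 lower (4.74%) in dry leaves. The median size of a called difference was 0.81, and 637 called loci differed by at least 1, of which 363 were higher and 274 lower. The sign was the same in all 3 pairs for 1767 of the 1803, and for 1656 the dry and wet arrays did not overlap. Those loci were called from the same arrays, so the selection favours both counts and they give no separate support. The median difference over all loci was 0.002. With each array centred on its median that shift was 0.052, and the split became 1073 higher and 772 lower, so that 58.2% of the calls were higher in dry leaves instead of 45.5%.

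The arrays were alike in level, and the calls depended on sharing one estimate of spread among all accessions and on single arrays. The medians of the 6 SQ-8 arrays lay between 5.496 and 5.588, within the 5.496 to 5.621 of all 59 arrays. Each test took its spread from all 59 arrays, with the replicate number as a term. When the SQ-8 arrays were fitted alone, 0 loci passed limma's adjusted threshold and 4325 had an unadjusted p under 0.05. Without the replicate number in the fit, 1025 loci were called (538 higher, 487 lower). Leaving out wet replicate 3 left 563 calls, dry replicate 3 left 1014 and dry replicate 1 left 1115, whereas leaving out wet replicate 1, dry replicate 2 or wet replicate 2 left 1224, 1386 and 1749. Over the first 33 gene lists used here, 140 memberships were called, against 54 without wet replicate 3, 79 without dry replicate 3, 90 without wet replicate 1 and 91 without dry replicate 1. The differences of pair 3 resembled those of pairs 1 and 2 (r = 0.62 each, across loci, which are not independent), and pairs 1 and 2 resembled each other less (r = 0.33). The labels call the arrays biological replicates without saying that each came from a separate plant or harvest, so the p-values measure only the spread between these samples, and the number of arrays limits the precision. In whole leaves, fewer cells of a type and less RNA per cell cannot be told apart.

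**Figure D1:**
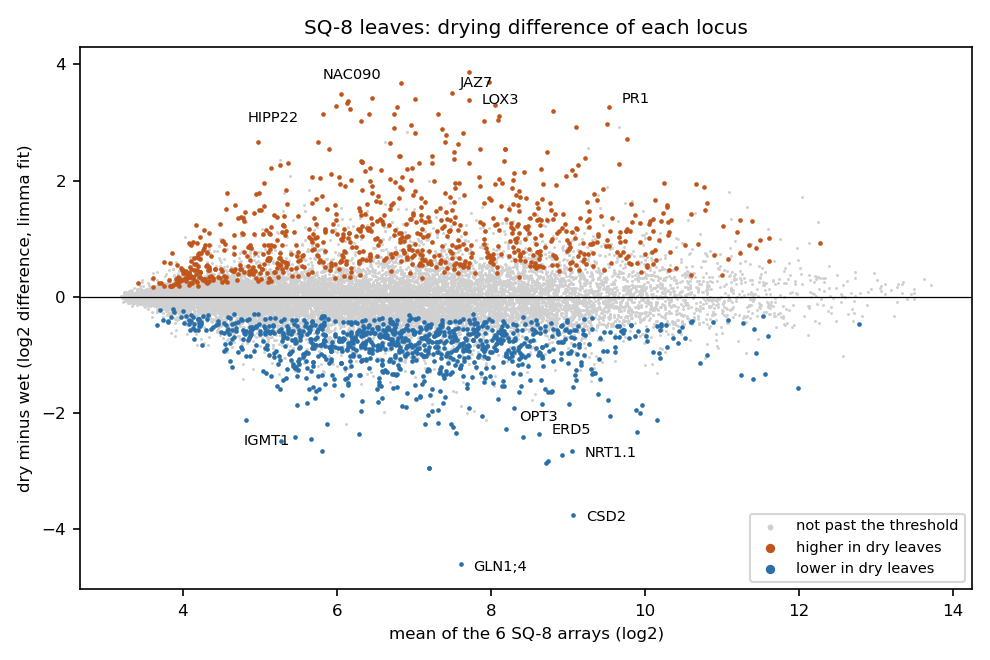
Dry minus wet difference of each of 20728 loci in SQ-8 leaves (log2, limma fit, vertical axis) against its mean on the 6 SQ-8 arrays (log2, horizontal axis). The 820 loci called higher in dry leaves and the 983 called lower are coloured, and the named points run from NAC090 near the top to GLN1;4 at the bottom.

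The label of rosette leaf was checked against marker genes. The 4 leaf mesophyll markers averaged between 12.9 and 13.2 on the dry SQ-8 arrays and between 12.3 and 12.9 on the wet ones, near the top of the scale, and 0 of the 4 passed the test. Root markers averaged between 4.62 and 4.67 on dry arrays and 4.56 and 4.74 on wet ones, and flower and meristem markers between 4.44 and 4.59 on dry arrays and 4.45 and 4.54 on wet ones. Of 21 root markers, 6 were low on the scale (a mean below 4.22, the lower quartile over all loci) in dry leaves and 9 in wet leaves, and of 21 flower and meristem markers 10 were so in dry leaves and 12 in wet leaves. In the root list 1 gene was called, SCR, a radial patterning regulator also active in leaf bundle sheath, which differed by -0.61 ± 0.16 (limma adjusted p = 0.0143; up to 0.10 without dry replicate 2 or wet replicate 1 or 3). In the flower list the called gene was AGL8, also named FRUITFULL, which differed by 0.48 ± 0.15 (adjusted p = 0.0435; up to 0.21 without any array but dry replicate 1). Guard cell markers had 1 of 16 members lower (the plasma membrane proton pump gene HA1, -0.55 ± 0.17, lost without dry replicate 1, 2 or 3 or wet replicate 3, up to 0.417) and none higher, and 0 of 18 vascular markers passed. Without the replicate term the adjusted p was 0.0848 for SCR, 0.0708 for AGL8 and 0.228 for HA1. The called shares were 4.76% of root, 4.76% of flower and 6.25% of guard cell markers, against 8.7% of all loci.

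Among genes of the dehydration and ABA response, 25 of 31 measured members had a positive difference in SQ-8. Of the 31, 13 were higher, 1 was lower and 17 did not pass (45.2% called, against 8.7% of all loci). The list median was 1.11, against 0.002 over all loci. The count without the replicate term was 6 higher and 0 lower. Leaving out 1 array gave between 8 (without dry replicate 2) and 12 members higher. The mean of the list was higher in dry leaves by 1.25, 1.13 and 0.81 in pairs 1, 2 and 3, and its mean difference in each of the other 9 accessions lay between 0.37 and 1.03.

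RAB18, a dehydrin gene that responds to ABA, had 6.26, 6.29 and 7.01 in dry leaves, against 3.76, 4.13 and 4.79 in wet leaves. All 3 dry arrays lay above all 3 wet arrays, a difference of 2.3 ± 0.43 (SE; n = 3 arrays each; 4.92-fold; limma adjusted p = 0.000704). HIS1-3, which encodes a drought-inducible linker histone, had 7.78, 8.62 and 9.72 in dry leaves, against 5.12, 6.73 and 7.14 in wet leaves. It was higher in dry leaves in every pair and without overlap, by 2.38 ± 0.46 (5.2-fold; adjusted p = 0.000895). ERD7, an early dehydration-responsive gene, had 10.06, 11.83 and 11.49 in dry leaves, against 7.48, 8.7 and 9.06 in wet leaves. Its dry and wet arrays stood well apart, by 2.71 ± 0.57 (6.55-fold; adjusted p = 0.00212). The caleosin gene RD20 had 10.53, 9.5 and 7.83 in dry leaves, against 8.01, 7.1 and 6.72 in wet leaves. It was higher in each pair, but dry replicate 3 lay below wet replicate 1, and the difference of 2.01 ± 0.44 passed with the replicate term (adjusted p = 0.00283) and not without it (0.118). DREB2A, a transcription factor gene of the dehydration response, was also called only with that term (2.31 ± 0.55; adjusted p = 0.00659, and 0.0769 without the term).

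LEA7, a late embryogenesis abundant protein gene, was at the bottom of the scale in wet leaves and higher in each dry array, with 4.57, 5.93 and 5.45 in dry leaves, against 3.77, 3.86 and 3.78 in wet leaves. The difference of 1.51 ± 0.2 (limma adjusted p = 5.64e-06) may understate the change, since its wet mean is below 4.22. RAB18, HIS1-3, ERD7, RD20, DREB2A and LEA7 passed with each of the 6 arrays left out. LTP4, a lipid transfer protein gene with a close copy in LTP3, had 7.88, 8.42 and 8.64 in dry leaves, against 5.04, 4.53 and 5.92 in wet leaves. Its groups were far apart, by 3.15 ± 0.9 (adjusted p = 0.0223), but the call was lost without dry replicate 2 or 3 or wet replicate 1 or 2 (adjusted p up to 0.104) and without the replicate term (0.0584). LTP3 itself did not pass, at 2.84 ± 1.08 (adjusted p = 0.0928).

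Several well-known drought genes did not pass in SQ-8. The cold- and drought-regulated genes COR15A and COR15B differed by 1.19 ± 0.5 and 1.24 ± 0.52 (limma adjusted p = 0.133 and 0.134). LTI78, also called RD29A, had 5.94, 10.23 and 7.83 in dry leaves, against 5.79, 7.2 and 8.6 in wet leaves. Its difference was positive in pairs 1 and 2 and negative in pair 3, with 0.81 ± 0.75 overall (adjusted p = 0.58). LTI65, also called RD29B, differed by 0.27 ± 0.14 (adjusted p = 0.254). BGLU18, a beta-glucosidase gene that releases ABA from its stored conjugate, had 11.19, 10.93 and 9.51 in dry leaves, against 8.14, 8.5 and 7.3 in wet leaves. Although its groups did not overlap, the shared estimate of its spread was wide, at 2.56 ± 1.15 (adjusted p = 0.165). The member called lower, RD22, was chosen after its values were seen: it is named for its response to dehydration and differed by -1.35 ± 0.34 (adjusted p = 0.0105; 0.105 without the replicate term; up to 0.16 without dry replicate 2 or wet replicate 3).

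In the synthesis, breakdown and signalling of ABA, 3 of 41 genes were higher and 2 lower (12.2%, against 8.7% of all loci), with a median of 0.02. PP2CA, a phosphatase gene that holds ABA signalling down and that ABA induces, had 9.29, 9.22 and 9.24 in dry leaves, against 7.83, 7.86 and 8.34 in wet leaves. The dry arrays were nearly equal and all above the wet ones, by 1.24 ± 0.24 (2.36-fold; limma adjusted p = 0.00107), with each array left out in turn as well. HAI1, another PP2C gene, was higher by 1.08 ± 0.3 (adjusted p = 0.0195) and lost its call without dry replicate 1 or 3 or wet replicate 1 or 3 (up to 0.0794). The receptor genes PYL1 and RCAR1 were lower, by 1.18 ± 0.26 and 0.92 ± 0.29 (adjusted p = 0.00274 and 0.0363), and the kinase gene SNRK2.3 was higher by 0.69 ± 0.22 (adjusted p = 0.0428). None of these 3 passed without the replicate term (0.0539, 0.134 and 0.471), RCAR1 was lost without any array but dry replicate 1 (up to 0.216), and SNRK2.3 without dry replicate 1 or 3 or wet replicate 1 (up to 0.301). NCED3, the drought-induced step of ABA synthesis, did not pass, at 0.55 ± 0.4 (adjusted p = 0.447). Of 8 genes of proline metabolism, 1 was lower and none was higher (12.5%). That gene was ERD5, for proline dehydrogenase, the first enzyme of proline breakdown, with 7.36, 7.8 and 7.18 in dry leaves, against 9.76, 9.88 and 9.8 in wet leaves. Its groups lay far apart, by -2.36 ± 0.57, so the level was 5.14-fold higher in wet leaves (adjusted p = 0.00726), with every array left out too.

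**Figure D2:**
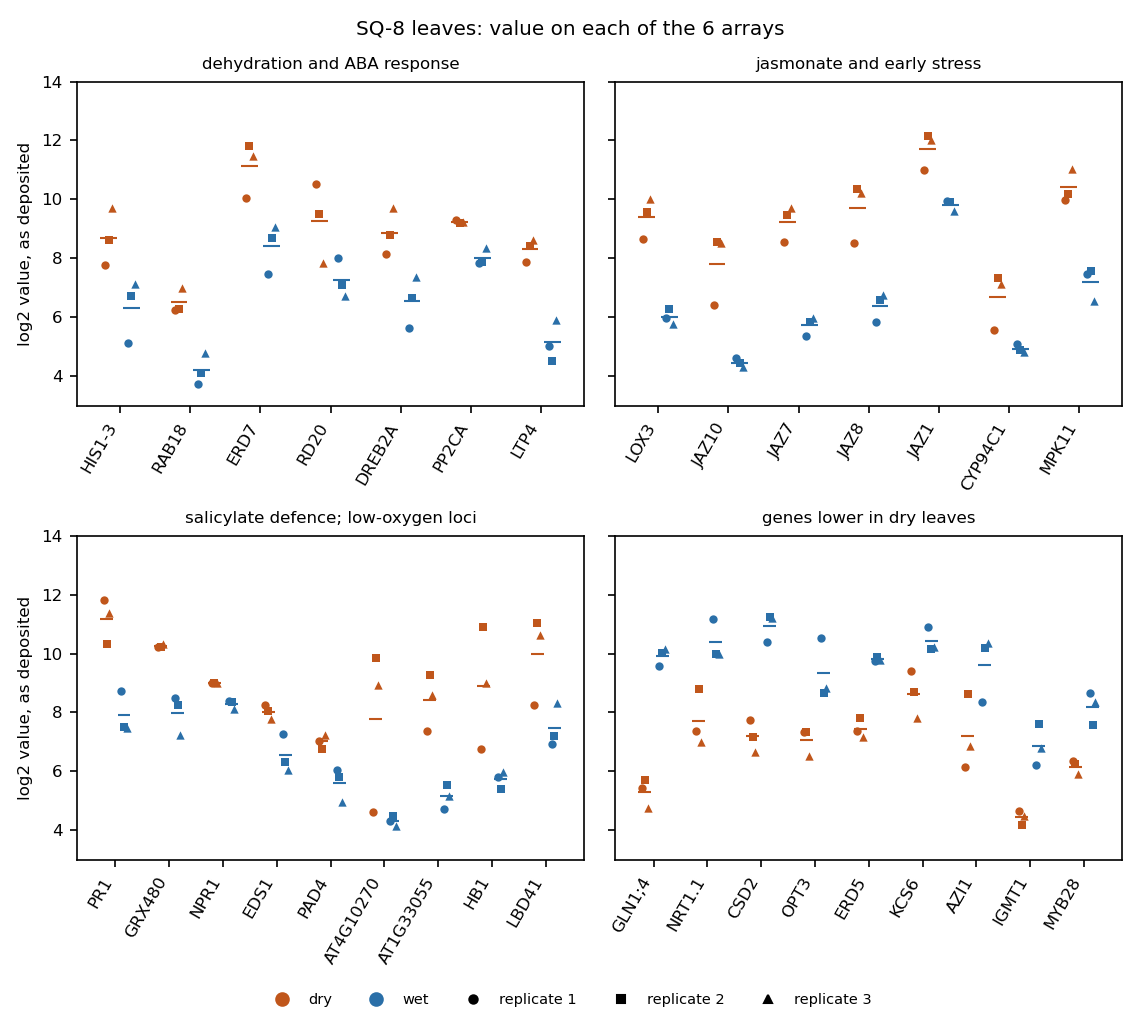
Log2 values of named genes on each of the 6 SQ-8 arrays (vertical axis), dry arrays left of wet arrays within each gene, with symbols for replicates 1 to 3 and a bar at each group mean. Dry and wet symbols do not overlap for most of these genes, RD20, AT4G10270, HB1 and LBD41 spread widely among the dry arrays, and the groups of RD20, LBD41 and AZI1 overlap.

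Of the jasmonate list 47.2% of the members were called, against 8.7% of all loci. Of 36 genes, 15 were higher and 2 were lower, with a median of 0.82, and the mean of the list was higher in dry leaves by 0.77, 1.18 and 1.15 in the 3 pairs. In the other 9 accessions the mean difference of the list lay between -0.08 and 0.76. Without the replicate term 14 members were higher and 0 lower. Leaving out wet replicate 3, dry replicate 2 or dry replicate 3 left 7, 8 and 9 members higher, and the other arrays left between 11 and 15.

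LOX3, a lipoxygenase gene at the entry of jasmonate synthesis, had 8.65, 9.58 and 10.02 in dry leaves, against 5.99, 6.28 and 5.78 in wet leaves. The groups were more than 2 units apart, with a difference of 3.4 ± 0.72 (10.5-fold; limma adjusted p = 0.00231). JAZ10, a repressor gene, had 6.41, 8.55 and 8.52 in dry leaves, against 4.63, 4.44 and 4.31 in wet leaves. Dry replicate 1 was lower than the other dry arrays yet above every wet array, and the difference was 3.36 ± 0.64 (10.3-fold; adjusted p = 0.000726). JAZ1, another repressor, had 10.99, 12.15 and 12.01 in dry leaves, against 9.96, 9.9 and 9.62 in wet leaves. It stood high in both groups and higher in all dry arrays, by 1.89 ± 0.4 (adjusted p = 0.00216). CYP94C1, which encodes an enzyme that oxidises and so inactivates the active jasmonate, had 5.56, 7.34 and 7.15 in dry leaves, against 5.09, 4.91 and 4.82 in wet leaves. The dry arrays were again all above the wet ones, by 1.74 ± 0.32 (adjusted p = 0.000489). These 4 genes and the repressor gene JAZ3 (1.22 ± 0.28; adjusted p = 0.0041) passed with each of the 6 arrays left out.

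JAZ7 and JAZ8 were among the 14 largest rises but lost their calls when some single arrays were left out. JAZ7 had 8.55, 9.47 and 9.72 in dry leaves, against 5.38, 5.85 and 5.97 in wet leaves. Its difference of 3.51 ± 0.96 (11.4-fold; limma adjusted p = 0.0178) did not pass without dry replicate 2 or 3 or wet replicate 1 or 3 (adjusted p up to 0.0778). JAZ8 differed by 3.3 ± 0.87 (9.84-fold; adjusted p = 0.0131) and did not pass without dry replicate 2 or 3 or wet replicate 1 (up to 0.0674). CYP94B3, a second gene of jasmonate inactivation, was higher by 2.3 ± 0.57 (adjusted p = 0.00837) and was lost without dry replicate 2 (0.0658). The 2 members called lower were chosen after their values were seen: COI1, the receptor gene, differed by -0.5 ± 0.13, and MYC4, a transcription factor gene of the pathway, by -0.62 ± 0.2 (adjusted p = 0.0154 and 0.0422). Neither passed without the replicate term (0.116 and 0.342), without dry replicate 2 or without wet replicate 3, nor MYC4 without dry or wet replicate 1 (up to 0.114 and 0.345). Outside the list, NATA1, an acetyltransferase gene that acts on ornithine, was higher by 3.24 ± 1.05 (9.44-fold; adjusted p = 0.0444), and the call held without dry replicate 3 but not without any of the other 5 arrays (up to 0.195).

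The genes where jasmonate acts together with ethylene were called at a share near that of all loci. Of 27 members, 1 was higher and 2 were lower (11.1%, against 8.7% of all loci), with a median of 0.30. The mean of the list differed by 0.42, 0.008 and 0.12 in the 3 pairs, against -0.52 to -0.07 in the other 9 accessions. AZI1, a lipid-transfer-like protein gene of defence priming, had 6.15, 8.62 and 6.85 in dry leaves, against 8.35, 10.17 and 10.34 in wet leaves. Each dry array was below the wet array of its pair but the groups overlapped, and the difference of -2.41 ± 0.51 (limma adjusted p = 0.00204) did not pass without the replicate term (0.105). EIN2, a central ethylene signalling gene, was lower by 0.69 ± 0.15 (adjusted p = 0.00357) with all arrays and with each left out, and the ethylene response factor gene ERF-1 was higher by 1.26 ± 0.35 (adjusted p = 0.0201), which was lost without dry replicate 2 or 3 or wet replicate 1 or 3 (up to 0.121). The defensin gene PDF1.2 had 7.19, 7.25 and 4.89 in dry leaves, against 3.75, 4.68 and 3.84 in wet leaves. All dry arrays were above all wet arrays, but its spread was wide and it did not pass (2.35 ± 1.47; adjusted p = 0.355).

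Salicylate defence genes had positive differences almost throughout, though most did not pass. Of 32 measured members, 31 had a positive difference, 9 were higher and 0 were lower (28.1% called, against 8.7% of all loci). The median was 0.84. The mean of the list was higher in dry SQ-8 leaves by 0.76, 0.82 and 1.17 in the 3 pairs, while in the other 9 accessions it lay between -0.71 and 0.15. The count was 7 without the replicate term, 2 without wet replicate 3, 5 without dry replicate 3 and 6 without dry replicate 1 or wet replicate 1, and it was 7 without each other array.

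PR1, a pathogenesis-related protein gene, had 11.83, 10.31 and 11.38 in dry leaves, against 8.72, 7.51 and 7.47 in wet leaves. Every dry array stood above every wet array, by 3.27 ± 0.93 (9.65-fold; limma adjusted p = 0.0213), but the call was lost without dry replicate 1 or 3 or wet replicate 2 or 3 (adjusted p up to 0.144). NPR1, the salicylate-responsive coactivator gene, had 9.0, 8.99 and 9.01 in dry leaves, against 8.39, 8.34 and 8.12 in wet leaves. The dry arrays were almost equal and the difference was small but clear of the wet arrays, at 0.72 ± 0.16 (adjusted p = 0.00275). EDS1 had 8.26, 8.06 and 7.77 in dry leaves, against 7.27, 6.32 and 6.07 in wet leaves. Dry arrays were all above wet ones, by 1.48 ± 0.32 (2.79-fold; adjusted p = 0.00301), and NPR1 and EDS1 passed with each array left out. PAD4, its partner, was higher by 1.41 ± 0.37 (adjusted p = 0.0126), and was lost without dry or wet replicate 3 (up to 0.113) and without the replicate term (0.0756). GRX480, a glutaredoxin gene that links salicylate to the repression of jasmonate genes, had 10.22, 10.23 and 10.32 in dry leaves, against 8.49, 8.27 and 7.24 in wet leaves. The wet arrays were more spread than the dry ones, all lower, with a difference of 2.26 ± 0.61 (adjusted p = 0.0166), lost without dry or wet replicate 3 (up to 0.123). ALD1, needed to make the defence signal pipecolic acid, was higher by 0.66 ± 0.17 (adjusted p = 0.00895) and was lost without dry replicate 1 or wet replicate 3 (up to 0.208).

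Touch, wounding and early stress regulators had 9 of 39 members higher and 2 lower (28.2%, against 8.7% of all loci), with a median of 0.36. The count of higher members was 2 without dry replicate 3 or wet replicate 3, and 6 without dry replicate 2. MPK11, a MAP kinase gene, had 10.0, 10.19 and 11.04 in dry leaves, against 7.46, 7.58 and 6.57 in wet leaves. Its dry and wet arrays were more than 2 units apart, with a difference of 3.21 ± 0.62 (9.23-fold; limma adjusted p = 0.000841), also with each array left out. The locus AT5G62570 behaved likewise at a smaller size (1.75 ± 0.37; adjusted p = 0.0023). The zinc finger gene ZF1 and the receptor kinase gene CRK11 were higher by 1.32 ± 0.35 and 1.36 ± 0.32 (adjusted p = 0.0141 and 0.00559), and both were lost without dry or wet replicate 3 (up to 0.0937 and 0.078). The ubiquitin ligase gene PUB22 was lower by 1.56 ± 0.39 (adjusted p = 0.0092), which was lost without dry replicate 3 or wet replicate 1 (up to 0.078).

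Among heat shock proteins and factors, 4 of 28 were higher and 1 was lower (17.9%, against 8.7% of all loci), with a median of 0.30. HSP17.6A, a small heat shock protein gene, had 5.0, 6.44 and 7.49 in dry leaves, against 3.56, 3.65 and 3.71 in wet leaves. It was near the bottom of the scale in wet leaves, so the difference of 2.67 ± 0.66 (limma adjusted p = 0.00839) may understate the change, and it was lost without dry replicate 3 (0.0952). The locus AT5G48570 had 5.6, 7.63 and 8.02 in dry leaves, against 4.07, 4.52 and 4.68 in wet leaves. It was higher in all dry arrays by 2.66 ± 0.5 (adjusted p = 0.000572). Hop3, a co-chaperone gene, was higher by 1.25 ± 0.25 (adjusted p = 0.00108), although 1 dry array lay within the wet ones. HSFA7A, a heat shock factor gene, moved the other way, by -1.37 ± 0.23 (adjusted p = 0.000161), and AT5G48570, Hop3 and HSFA7A passed with each array left out. Leaf senescence genes had 4 of 34 members higher and none lower (11.8%), with a median of 0.34. Their list means were 1.02, -0.18 and 0.37 in the 3 pairs. The count was 0 without wet replicate 1 or 3, 1 without dry replicate 1 and 2 without dry replicate 3. SAG29, a sugar transporter gene of senescing leaves, had 9.12, 6.05 and 7.02 in dry leaves, against 5.85, 5.78 and 5.37 in wet leaves. Dry replicate 1 was far above the other arrays, and the difference of 1.73 ± 0.46 (adjusted p = 0.0141) was lost without it, without wet replicate 1 and without wet replicate 3 (up to 0.219).

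Genes that respond to low oxygen, a list chosen after the values were seen, were often higher in dry leaves of SQ-8. Of 48 members, 19 were called higher and 1 was lower (41.7%, against 8.7% of all loci). In this list 43 differences were positive, and the median was 0.55. The mean difference was uneven among the pairs, at 0.42, 1.39 and 0.69, and lay between -0.14 and 0.19 in the other 9 accessions. Leaving out dry replicate 2 left 10 members higher and a median of 0.23, leaving out wet replicate 3 left 11, and leaving out dry replicate 1 gave 22.

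HB1, which encodes a non-symbiotic haemoglobin induced by lack of oxygen, had 6.76, 10.9 and 9.0 in dry leaves, against 5.81, 5.41 and 5.98 in wet leaves. The 3 dry arrays differed by several units among themselves and all lay above the wet arrays, with a difference of 3.15 ± 0.54 (8.87-fold; limma adjusted p = 0.000187). LBD41, a LOB-domain transcription factor gene, had 8.25, 11.05 and 10.62 in dry leaves, against 6.94, 7.19 and 8.33 in wet leaves. Dry replicate 1 lay just below wet replicate 3, so the groups overlapped, while each pair was higher in dry leaves, by 2.49 ± 0.47 overall (adjusted p = 0.000704). The locus AT4G10270 had 4.63, 9.84 and 8.92 in dry leaves, against 4.3, 4.48 and 4.15 in wet leaves. Dry replicates 2 and 3 were far above every wet array and dry replicate 1 was only just above, with a difference of 3.49 ± 0.59 (adjusted p = 0.000161) that ranged from 2.4 to 5.05 as arrays were left out. The locus AT1G33055 had 7.39, 9.26 and 8.6 in dry leaves, against 4.73, 5.55 and 5.17 in wet leaves. It was the most even of these, with all pairs at a like size and 3.26 ± 0.34 overall (9.59-fold; adjusted p = 4.00e-08). AT3G10040 and AT3G27220 were higher by 2.28 ± 0.37 and 1.2 ± 0.24 (adjusted p = 0.000111 and 0.00129). All 6 passed with each array left out and without the replicate term. The alcohol dehydrogenase gene ADH1, chosen after its values were seen because it is a classic low-oxygen gene, had 5.77, 9.21 and 6.74 in dry leaves, against 5.9, 5.43 and 6.45 in wet leaves. Only dry replicate 2 stood clearly above the wet arrays, and the difference of 1.31 ± 0.42 (adjusted p = 0.0437) was lost without dry replicate 2 or any wet array (up to 0.669), and without the replicate term (0.0559).

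Other loci among the 14 largest rises belonged to none of these lists. NAC090, a NAC transcription factor gene, had 8.52, 8.63 and 8.9 in dry leaves, against 5.88, 4.88 and 4.24 in wet leaves. Its groups were more than 2 units apart, by 3.68 ± 0.62 (12.8-fold; limma adjusted p = 0.000163). OSM34, an osmotin-like gene, had 8.61, 7.62 and 8.26 in dry leaves, against 4.18, 5.69 and 4.38 in wet leaves. Dry and wet arrays did not overlap and were apart by 3.42 ± 0.52 (10.7-fold; adjusted p = 4.30e-05). The largest rise was that of AT5G05600, with 8.6, 10.34 and 10.03 in dry leaves, against 6.14, 5.94 and 5.26 in wet leaves. The difference of 3.88 ± 0.7 was 14.7-fold (adjusted p = 0.000411). The locus AT2G23110 had the smallest error of the 14, with 8.76, 6.83 and 7.8 in dry leaves, against 4.09, 4.81 and 4.5 in wet leaves. It differed by 3.33 ± 0.22 (adjusted p = 9.33e-14). The fit shares its estimate of spread among all accessions, so this error and p do not measure the spread of these arrays alone. The dry values here ran from 6.83 to 8.76. AT3G59350 was higher by 3.28 ± 0.69 (adjusted p = 0.00203). These 5 loci passed with each array left out, whereas AT3G28220 (3.4 ± 1.11; adjusted p = 0.0465) was lost whichever array was left out (up to 0.229).

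Genes of nitrogen uptake and assimilation held some of the largest falls, although the list of 40 went both ways. It had 3 members higher and 4 lower (17.5%, against 8.7% of all loci) and a median of 0.10. None was higher without wet replicate 3, and 1 without dry replicate 1. The largest fall of all loci was in GLN1;4, a cytosolic glutamine synthetase gene, with 5.44, 5.73 and 4.75 in dry leaves, against 9.57, 10.02 and 10.14 in wet leaves. Dry and wet arrays were nearly 4 units apart, and the fitted difference was -4.6 ± 0.76, a 24.3-fold higher level in wet leaves (limma adjusted p = 0.00013). NRT1.1, the dual-affinity nitrate transporter and sensor gene, had 7.38, 8.79 and 7.02 in dry leaves, against 11.18, 9.98 and 9.97 in wet leaves. It was lower in all dry arrays by 2.65 ± 0.43 (adjusted p = 0.000115), and both genes passed with each array left out. The high-affinity nitrate transporter gene NRT2.5 was lower by 1.47 ± 0.39 (adjusted p = 0.015), lost without dry replicate 1 or wet replicate 3 (up to 0.116), and the cytosolic glutamine synthetase gene GSR 1 by 1.0 ± 0.29 (adjusted p = 0.0273; 0.0589 without the replicate term; up to 0.124 without dry replicate 1 or 2 or wet replicate 1 or 3). NIA2, which encodes the main nitrate reductase, had 10.38, 9.03 and 8.44 in dry leaves, against 9.2, 7.6 and 5.58 in wet leaves. Arrays of one group lay far apart and those of one number ranked alike, and it was higher in the dry array of every pair, by 1.82 ± 0.46 (adjusted p = 0.0103), a call lost without the replicate term (0.191) or wet replicate 3 (0.22). CLC-A, which loads nitrate into the vacuole, was higher by 1.59 ± 0.45 (adjusted p = 0.0217; 0.0786 without the term), and was lost without dry replicate 1 or wet replicate 3 (up to 0.248).

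Copper and iron genes, another list chosen after the values were seen, went both ways, with 3 of 44 higher and 5 lower. The called share was above the 8.7% of all loci, but choosing the list after the values were seen favours a high count. The list median of -0.04 turned to 0.01 when arrays were centred on their medians. CSD2, the plastid copper/zinc superoxide dismutase gene, had 7.74, 7.17 and 6.66 in dry leaves, against 10.4, 11.23 and 11.2 in wet leaves. It was lower in all dry arrays by 3.75 ± 0.84, a 13.5-fold higher level in wet leaves (limma adjusted p = 0.00356). OPT3, a transporter gene that loads iron and copper into the phloem, had 7.34, 7.34 and 6.51 in dry leaves, against 10.51, 8.66 and 8.85 in wet leaves. It was lower in every dry array, by 2.27 ± 0.34 (adjusted p = 3.54e-05). HIPP22, a gene for a metal-binding isoprenylated protein, had 8.25, 5.75 and 8.18 in dry leaves, against 4.21, 4.26 and 4.26 in wet leaves. The wet arrays were low and nearly equal while the dry ones were all higher, by 3.15 ± 0.38 (8.86-fold; adjusted p = 9.92e-07), and these 3 genes passed with each array left out. The ferritin gene FER4, which encodes an iron store, was higher by 1.71 ± 0.42 (adjusted p = 0.00863) and lost without wet replicate 3 (0.0536). The copper transporter gene COPT5 and the metal transporter gene YSL1 were lower by 0.67 ± 0.19 and 1.17 ± 0.34 (adjusted p = 0.0201 and 0.027), COPT5 being lost without dry replicate 1 or 2 or wet replicate 2 or 3 (up to 0.0838) and YSL1 without dry replicate 1 or 3 or wet replicate 3 (up to 0.186) or the replicate term (0.0855).

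Of 38 genes for superoxide dismutases, ascorbate and catalase, 4 were higher and 4 lower (21.1%, against 8.7% of all loci). None was higher without wet replicate 3, 1 without dry replicate 1 or 3 and 2 without wet replicate 1. Besides CSD2, the mitochondrial superoxide dismutase gene MSD1 was lower by 0.5 ± 0.12 (limma adjusted p = 0.00534), and the catalase gene CAT1 and the NADPH oxidase gene RBOHD were higher by 1.01 ± 0.26 and 1.54 ± 0.45 (adjusted p = 0.0107 and 0.0262). All 3 were lost without wet replicate 3, MSD1 and CAT1 also without dry replicate 1 and RBOHD without dry replicate 2 or 3 (up to 0.117, 0.116 and 0.153), and CAT1 without the replicate term (0.217). The superoxide dismutase gene CSD1, chosen after its values were seen, was lower by 2.33 ± 0.72 (adjusted p = 0.0354, and 0.0467 without the term). Its call was lost without any array but wet replicate 1 (up to 0.207). The remaining large falls were spread over functions. UMAMIT17, of a family of amino acid transporters, had 5.41, 4.31 and 3.74 in dry leaves, against 7.98, 6.14 and 7.27 in wet leaves. It was lower in each pair and without overlap, by 2.65 ± 0.52 (adjusted p = 0.00101). PLAT2, a PLAT-domain protein gene, was lower by 2.73 ± 0.51 (adjusted p = 0.000582), and IGMT1, a methyltransferase gene of indole glucosinolates, by 2.44 ± 0.39 (adjusted p = 0.000106), both also with each array left out. Of the loci the reference does not name, AT4G19430, AT3G16670, AT5G05250 and AT1G70270 differed by -2.83, -2.86, -2.49 and -2.41. AT4G19430 passed with each array left out, AT3G16670 was lost without dry replicate 1 or 3 or wet replicate 1, AT5G05250 without wet replicate 1 and AT1G70270 without wet replicate 3 (up to 0.12, 0.0668 and 0.0923). AT1G73600 and AT1G73602 gave nearly identical values, differed by -2.95 each and count as 1 signal, which did not pass without the replicate term (0.108). AHP4, a phosphotransfer gene of cytokinin signalling, had 3.5, 5.63 and 6.19 in dry leaves, against 6.99, 6.67 and 8.75 in wet leaves. Its arrays were widely spread, and the difference of -2.37 ± 0.6 (adjusted p = 0.0102) was lost without dry replicate 1 or wet replicate 3 (up to 0.103) and without the replicate term (0.0859).

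In cytokinin response, 4 of 37 genes were higher and 4 lower (21.6%, against 8.7% of all loci), with a median of 0.18. RR5, a response regulator gene that cytokinin induces, had 8.0, 7.78 and 8.26 in dry leaves, against 4.87, 5.86 and 5.37 in wet leaves. All dry arrays were about 2 units or more above the wet ones, with 2.65 ± 0.43 (6.27-fold; limma adjusted p = 0.000111). The cytokinin-degrading oxidase genes went different ways, CKX4 and CKX5 being higher by 1.58 ± 0.2 and 1.02 ± 0.23 (adjusted p = 1.96e-06 and 0.00449) and CKX6 lower by 1.36 ± 0.35 (adjusted p = 0.0109). LOG8, which activates cytokinin, had 8.09, 8.27 and 7.53 in dry leaves, against 10.22, 9.27 and 9.33 in wet leaves. It was lower in all dry arrays by 1.64 ± 0.25 (adjusted p = 4.30e-05). The receptor gene HK2 was lower by 0.71 ± 0.17 (adjusted p = 0.00666). RR5, CKX4, CKX5 and LOG8 passed with each array left out, HK2 was lost without wet replicate 3 (0.0533), and CKX6 without dry replicate 1 or wet replicate 1 or 3 (up to 0.13). ARR7, a close relative of RR5, did not pass, at 1.32 ± 0.45 (adjusted p = 0.061).

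Auxin response genes were called no more often than all loci (6.82%, against 8.7%). They had 3 of 44 members lower and none higher, with 32 negative differences and a median of -0.26. Among them the auxin-response repressor genes AXR3 and IAA11 were lower by 1.51 ± 0.39 and 0.4 ± 0.11 (limma adjusted p = 0.0114 and 0.0187). Both were lost without wet replicate 3, AXR3 also without dry replicate 2 or 3 and IAA11 without dry or wet replicate 1 (up to 0.0963 and 0.149), and AXR3 without the replicate term (0.103). The list mean differed by -0.05, -0.24 and -0.62 in the 3 pairs, and the count of lower members was 7 without wet replicate 2 and 0 without wet replicate 3. Among gibberellin and brassinosteroid genes, 1 of 40 was higher and 2 were lower (7.5%, also below the share of all loci). GASA1, a gene regulated by both hormones, had 9.17, 9.21 and 8.89 in dry leaves, against 11.34, 11.36 and 10.95 in wet leaves. Its groups did not overlap and were apart by -2.13 ± 0.7 (adjusted p = 0.0497), but the call was lost whichever array was left out (up to 0.196).

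Cell wall genes had 5 of 46 members higher and 2 lower (15.2%, against 8.7% of all loci). Their median of -0.04 turned to 0.01 when arrays were centred. The higher count was 1 without dry replicate 2, 2 without wet replicate 3 and 3 without dry replicate 1. XTR6, a xyloglucan-modifying enzyme gene, had 7.02, 7.36 and 6.58 in dry leaves, against 4.82, 5.0 and 4.77 in wet leaves. All dry arrays stood above the wet ones, by 2.12 ± 0.38 (4.35-fold; limma adjusted p = 0.00039), with each array left out too. Its relatives XTH18 and XTH25 were higher by 2.15 ± 0.54 and 1.08 ± 0.3 (adjusted p = 0.00927 and 0.0188), both lost without dry replicate 2 or wet replicate 3 and XTH25 also without dry replicate 1 (up to 0.0927 and 0.229), and XTH18 without the replicate term (0.0769). The expansin gene EXPA10, of a family that loosens walls, was higher by 1.03 ± 0.24 (adjusted p = 0.00553; 0.0767 without dry replicate 2) and EXPA4 lower by 1.07 ± 0.34 although pair 2 went the other way (adjusted p = 0.0376; 0.115 without the replicate term; up to 0.326 without dry replicate 1 or 3 or wet replicate 1 or 3). Of 20 aquaporins, 2 were lower and none higher (10%): SIP2;1 by 1.31 ± 0.26 and NIP1;2 by 1.01 ± 0.2 (adjusted p = 0.00129 and 0.00132), with each array left out too. Replication histones and cell cycle genes had 1 of 45 members higher and 4 lower (11.1%), with a median of -0.12. The histone genes HTA2 and HIS4 were lower by 1.39 ± 0.23 and 1.27 ± 0.28 (adjusted p = 0.000119 and 0.00321), each without overlap and with every array left out. CYCD3;1, the cyclin gene that drives entry into division, was higher by 2.19 ± 0.59 (adjusted p = 0.0152), lost without dry replicate 1 or 3 or wet replicate 3 (up to 0.108).

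Genes of galactinol, starch and sugar had 3 of 45 members higher and 2 lower (11.1%, against 8.7% of all loci), with a median of 0.12. GolS1, which encodes galactinol synthase, the first step to raffinose sugars, had 8.74, 8.03 and 8.01 in dry leaves, against 5.1, 7.04 and 6.64 in wet leaves. All dry arrays were above the wet ones, by 2.0 ± 0.49 (limma adjusted p = 0.00793), but wet replicate 1 was far below the others and the call was lost without it (0.13). The sugar uptake gene STP1 was higher by 1.76 ± 0.41 (adjusted p = 0.00505; 0.0919 without dry replicate 1 and 0.339 without the replicate term). Its relative STP4 was lower by 0.99 ± 0.23 (adjusted p = 0.00516), and APL3, a subunit of the first enzyme of starch synthesis, by 1.87 ± 0.48 (adjusted p = 0.0113; 0.236 without the term; up to 0.131 without dry replicate 1 or wet replicate 3). Photosystem and light harvesting genes had 1 of 41 members lower and none higher (2.44%), with 32 positive differences and a median of 0.10. The lower gene was LHCB4.3, a minor antenna protein gene, at -0.96 ± 0.23 (adjusted p = 0.00658; 0.387 without the term; up to 0.0627 without dry replicate 3 or wet replicate 1). In the Calvin cycle and photorespiration list 1 of 26 was higher (3.85%). It was the catalase gene CAT2, at 1.43 ± 0.45 (adjusted p = 0.0382; 0.149 without the term; up to 0.196 without dry replicate 1 or 3 or wet replicate 1 or 3). Cytosolic ribosomal protein genes had 2 of 25 members lower and none higher (8%, near the 8.7% of all loci), with 24 negative differences and a median of -0.20. The mean of the list differed by -0.56, 0.13 and -0.28 in the 3 pairs, so pair 2 went the other way, and the count was 0 without any array but dry replicate 2. In the cold list 2 of 23 were higher and 1 lower (13%, against 8.7% of all loci), with 0 or 1 higher in each leave-out. Among myrosinases and hydrolysis specifiers 1 of 9 was lower (11.1%), and 0 without the replicate term or in 4 of the 6 leave-outs. Among housekeeping genes 2 of 19 were higher and 1 lower (15.8%), with 1 higher and 0 lower without the term.

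Glucosinolate synthesis genes were called no more often than all loci (6.45%, against 8.7%). They had 2 of 31 members lower and none higher, with 23 negative differences and a median of -0.40. MYB28, the transcription factor gene that switches on aliphatic glucosinolate synthesis, had 6.35, 6.24 and 5.9 in dry leaves, against 8.67, 7.57 and 8.35 in wet leaves. It was lower in all dry arrays, by 2.03 ± 0.48 (limma adjusted p = 0.00558), and was lost without wet replicate 3 (0.0691). BCAT3, an aminotransferase gene of the same pathway, was lower by 0.71 ± 0.23 (adjusted p = 0.0446; up to 0.339 without dry replicate 1 or 3 or wet replicate 1 or 3). The mean of the list differed by -0.26, 0.06 and -0.94 in the 3 pairs, so pair 2 did not share the direction of the other pairs. Of 27 flavonoid and anthocyanin genes, 1 was higher and 1 lower (7.41%). C4H, an early phenylpropanoid enzyme gene, differed by 1.07 ± 0.27 (adjusted p = 0.00964, 0.11 without the replicate term, and up to 0.173 without dry or wet replicate 2). TT5, chalcone isomerase, differed by -0.86 ± 0.27 (adjusted p = 0.0358, 0.104 without the term, and up to 0.309 without dry replicate 1 or 3 or wet replicate 3). The list median of -0.05 was 0.004 when arrays were centred. Of 22 loci matched by symbol to trichome and epidermis markers, several of them wax genes, 1 was higher and 1 lower (9.09%, against 8.7% of all loci). The locus matched to FDH, AT5G14780, may not be the epidermal gene meant, and it was not called. KCS6, an elongase gene for the longest wax chains, was lower by 1.77 ± 0.26 (adjusted p = 2.53e-05), with each array left out too, and CER1, which acts in alkane formation, was higher by 0.74 ± 0.21 (adjusted p = 0.0213; up to 0.0858 without dry replicate 1 or 3 or wet replicate 1 or 3).

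Some clock genes, CCA1, LHY, COL2 and GI among them, spread widely within each group. CCA1, a morning gene of the clock, had 9.13, 6.73 and 4.99 in dry leaves, against 9.34, 7.34 and 6.04 in wet leaves. It spans about 4 units within dry leaves and more than 3 within wet leaves, while arrays with the same number lay within about 1 unit of each other. LHY, its partner, had 10.45, 8.23 and 6.45 in dry leaves, against 11.45, 9.34 and 7.56 in wet leaves. It was lower by about 1 unit in the dry array of each pair, by 1.07 ± 0.3 overall (limma adjusted p = 0.0186), which did not pass without the replicate term (0.768) and was lost without dry replicate 2 or 3 or wet replicate 1 or 3 (up to 0.0765). TOC1, an evening gene, had 5.88, 6.36 and 7.71 in dry leaves, against 5.19, 5.28 and 5.49 in wet leaves. Its dry and wet arrays did not overlap, with 1.33 ± 0.32 (adjusted p = 0.00704; 0.0884 without the term; up to 0.0834 without dry or wet replicate 3). In all, 2 of 30 clock genes were higher and 1 lower (10%, near the 8.7% of all loci). The part of harvest time in the other differences was not tested.

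**Figure D3:**
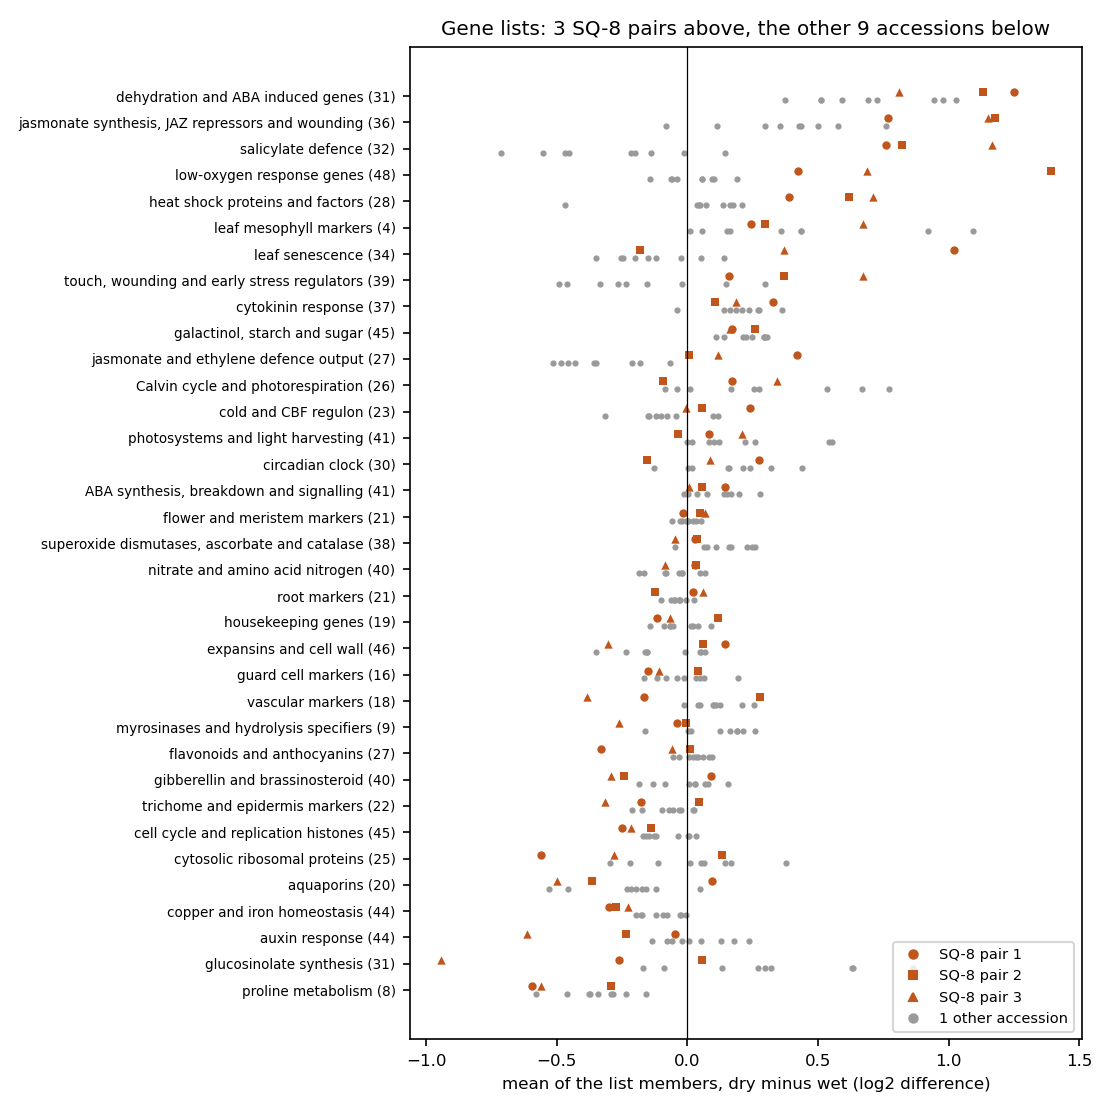
Mean dry minus wet difference (log2, horizontal axis) of the members of each of 35 gene lists, with the number of measured members in brackets. Symbols show the 3 SQ-8 pairs and grey points the other 9 accessions; the salicylate, low-oxygen and heat shock lists have all 3 SQ-8 pairs to the right of all 9 grey points, as do both jasmonate lists by a smaller gap, and the copper and iron list has them to the left.

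Whether SQ-8 responded differently from the other accessions was tested by setting its drying difference against the mean of those of the other 9. At 742 loci (3.58%) the difference passed the limma adjusted threshold, 395 being higher (1.91%) and 347 lower (1.67%) in SQ-8, and 262 of them differed by at least 1. Among the named loci that passed, PR1, HB1, NAC090 and AT2G23110 exceeded the other accessions most. Of the 1803 loci called in SQ-8, 362 had the opposite sign in the mean of the other 9. Without the replicate term 354 passed, without wet replicate 3 100, without dry replicate 3, dry replicate 2 or wet replicate 1 340, 395 and 475, and without dry replicate 1 or wet replicate 2 580 and 953. With centred arrays 663 were higher and 249 lower (72.7% higher instead of 53.2%), and after quantile normalization 413 and 239 (63.3%).

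Most dehydration genes did not pass this test. RAB18 and HIS1-3 differed by 1.74 and 2.73 on average in the other accessions, and SQ-8 exceeded these means by 0.56 ± 0.46 and -0.35 ± 0.49 (limma adjusted p = 0.545 and 0.746), where the negative value means less in SQ-8. PP2CA (-0.088 ± 0.26; adjusted p = 0.893), ERD5 (0.1 ± 0.61; 0.946) and AZI1 (0.11 ± 0.53; 0.94) also did not pass, and LTP4 stood at -0.12 ± 0.95 (0.963). Those tests do not show that the responses are equal. In the dehydration list 2 of 31 genes exceeded the other accessions, as did 1.91% of all loci. They were LEA7, by 1.27 ± 0.22 (adjusted p = 0.000491), and ERD7, by 2.08 ± 0.6 (adjusted p = 0.0442). ERD7 did not pass without the replicate term (0.202) or with any array left out (up to 0.185). In the jasmonate list 2 of 36 did, CYP94C1 by 1.72 ± 0.34 (adjusted p = 0.00293) and JAZ10 by 2.64 ± 0.67 (adjusted p = 0.0211, lost without dry replicate 2 or 3 or wet replicate 3, up to 0.139). LOX3 (2.29 ± 0.76; adjusted p = 0.0791) and JAZ7 (2.36 ± 1.02; 0.191) did not.

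**Figure D4:**
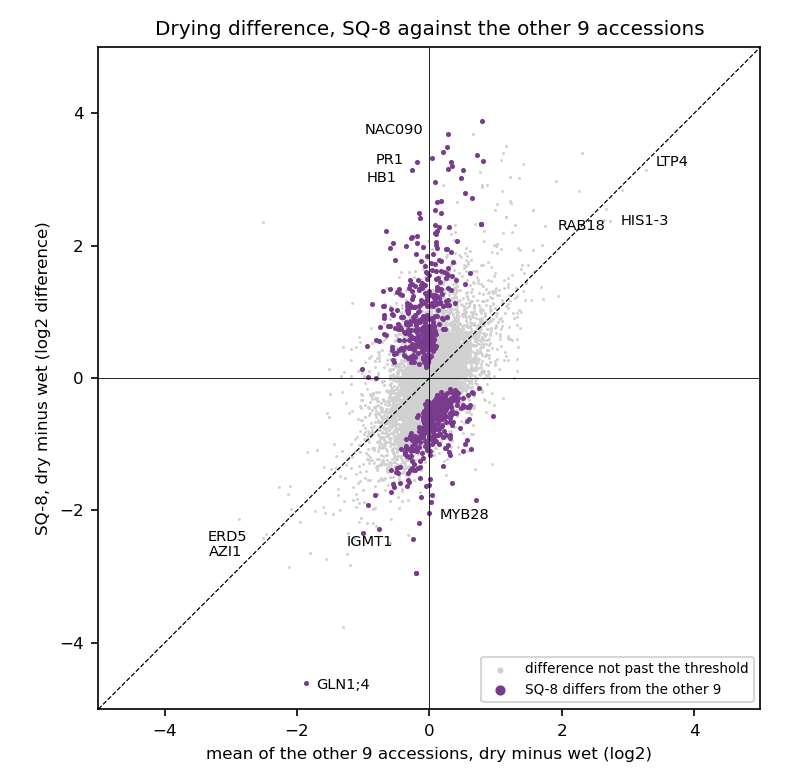
Dry minus wet difference in SQ-8 (log2, vertical axis) against the mean of the other 9 accessions (log2, horizontal axis) for 20728 loci, with the 742 loci whose difference passed the test in colour and a dashed line at equal values. HIS1-3, RAB18, LTP4, ERD5 and AZI1 lie near the line, and PR1, HB1 and NAC090 lie far above it near 0 on the horizontal axis.

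In the salicylate list 9 of 32 genes exceeded the other accessions and none fell below them, against 1.91% and 1.67% of all loci. EDS1 had a mean difference of -0.29 in the other 9 (range -1.03 to 0.15), and SQ-8 exceeded it by 1.77 ± 0.34 (limma adjusted p = 0.0023). NPR1 exceeded its mean of -0.19 (range -0.46 to 0.07) by 0.9 ± 0.16 (adjusted p = 0.00119), and both passed with each array left out. PR1 had -0.19 on average elsewhere (range -1.19 to 0.62), below each SQ-8 pair, and SQ-8 exceeded it by 3.46 ± 0.98 (adjusted p = 0.0372). The PR1 test passed only with all arrays or without wet replicate 1 (up to 0.232 otherwise), and not without the replicate term (0.0621). PAD4 and ALD1 exceeded the others by 1.7 ± 0.39 and 0.73 ± 0.17 (adjusted p = 0.0103 and 0.0138), both lost without wet replicate 3, PAD4 also without dry replicate 3 and ALD1 without dry replicate 1 (up to 0.0949 and 0.167), and PAD4 without the replicate term (0.0672). Without wet replicate 3 the list count was 2, without dry replicate 2 or 3 it was 5, and without the replicate term 6. GRX480 did not pass (2.0 ± 0.65; adjusted p = 0.0703).

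Among low-oxygen genes 11 of 48 exceeded the other accessions and none fell below them, against 1.91% and 1.67% of all loci. The list was chosen after the values were seen, which favours a high count, so the count gives no separate support. The count was 10 without the replicate term, 5 without dry replicate 2, 6 without wet replicate 3 and 17 without dry replicate 1. HB1 had a mean difference of -0.26 elsewhere (range -0.94 to 1.08), and SQ-8 exceeded it by 3.41 ± 0.57 (limma adjusted p = 0.000371). AT4G10270, AT1G33055 and AT3G10040 exceeded the others by 3.22 ± 0.62, 2.94 ± 0.36 and 2.14 ± 0.39 (adjusted p = 0.0023, 2.35e-06 and 0.00119), and these 4 passed with each array left out. LBD41 and AT3G27220 did so by 2.31 ± 0.5 and 1.13 ± 0.25 (adjusted p = 0.00679 and 0.0096), and were lost without dry replicate 2 (0.0751 and 0.114). Dry replicate 2 held the highest value of HB1, LBD41, AT4G10270, AT1G33055, AT3G10040, AT3G27220 and ADH1.

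For the lists that follow, 1.91% of all loci were above the other accessions in this test and 1.67% below. Touch and early stress genes had 7 of 39 members above and none below. The count above was 0 without wet replicate 3, 1 without dry replicate 3 and 4 without dry replicate 2. MPK11 exceeded them by 2.86 ± 0.65 (limma adjusted p = 0.0101; up to 0.116 without dry or wet replicate 3). In the cell wall list 4 of 46 were above and 1 below, with 1 above without wet replicate 3 and 2 without dry replicate 2 or without the replicate term. XTR6 was higher by 2.4 ± 0.4 (adjusted p = 0.000394), with each array left out too, whereas EXPA4 was at -1.69, its difference being negative in SQ-8 and positive in all the other 9 (range 0.16 to 1.35; adjusted p = 0.0050; 0.0967 without wet replicate 3). Heat shock genes had 3 of 28 above (0 without dry replicate 3, 1 without dry replicate 2), senescence genes 3 of 34 (0 without wet replicate 3 or the replicate term), and auxin genes 3 of 44 below (0 without dry or wet replicate 3, 8 without wet replicate 2). In glucosinolate synthesis 2 of 31 were below: MYB28 at -2.03 (adjusted p = 0.0182; 0.072 without the replicate term; up to 0.167 without dry replicate 1 or wet replicate 3) and BCAT3 at -0.90 (adjusted p = 0.0283; 0.0776 without the term; up to 0.267 without dry replicate 1 or 3 or wet replicate 1 or 3). MYB28 averaged close to 0 in the other 9 accessions (range -0.97 to 0.78). The largest falls were partly shared: GLN1;4 was lower in all 10 accessions and fell further in SQ-8, by -2.74 (adjusted p = 0.0455), which was lost without the replicate term (0.129) and without any array but wet replicate 1 (up to 0.298). CSD2 did not pass (-2.45 ± 0.89; adjusted p = 0.111). Its drying difference of -3.75 in SQ-8 stood beside -4.40 in Col and -3.51 in KNOX-18, and the others ran up to 0.36 in HR-5.

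The 12 loci with the smallest p in that test were all higher in SQ-8, and each passed with every array left out. They were picked by p from these same arrays, so the leave-outs give no separate support. Their p also depends on the spread in the other accessions, which the fit shares. The smallest p belonged to AT2G23110, which hardly moved elsewhere (range -0.062 to 0.4) and was higher in SQ-8 by 3.3 ± 0.23 (limma adjusted p = 8.02e-13). SYP42, a syntaxin gene of the trans-Golgi network, had 7.16, 8.7 and 8.82 in dry leaves, against 6.16, 5.92 and 5.68 in wet leaves. It was higher in all dry SQ-8 arrays and exceeded the other accessions by 2.22 ± 0.32 (adjusted p = 6.18e-05). CRK23, a receptor kinase gene, and SBT3.3, a subtilisin-like protease gene, did so by 1.57 ± 0.21 and 1.65 ± 0.22 (adjusted p = 1.14e-05 and 1.14e-05). AT1G26390, AT2G38240, AT5G44050 and AT5G25440 exceeded the other 9 by 1.85 ± 0.19, 1.95 ± 0.24, 1.88 ± 0.24 and 2.39 ± 0.34, and AT3G46500, AT2G01090 and AT4G30640 by 1.1 ± 0.14, 1.03 ± 0.15 and 0.8 ± 0.11. AT1G26390 and AT4G30640 were at the bottom of the scale in wet leaves, so their differences may understate the change. NAC090, OSM34, HIPP22 and IGMT1, named above, also passed with each array left out (SQ-8 minus the others 3.4 ± 0.66, 3.22 ± 0.54, 2.64 ± 0.4 and -2.19 ± 0.41; adjusted p = 0.00231, 0.00044, 9.74e-05 and 0.00188).

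**Figure D5:**
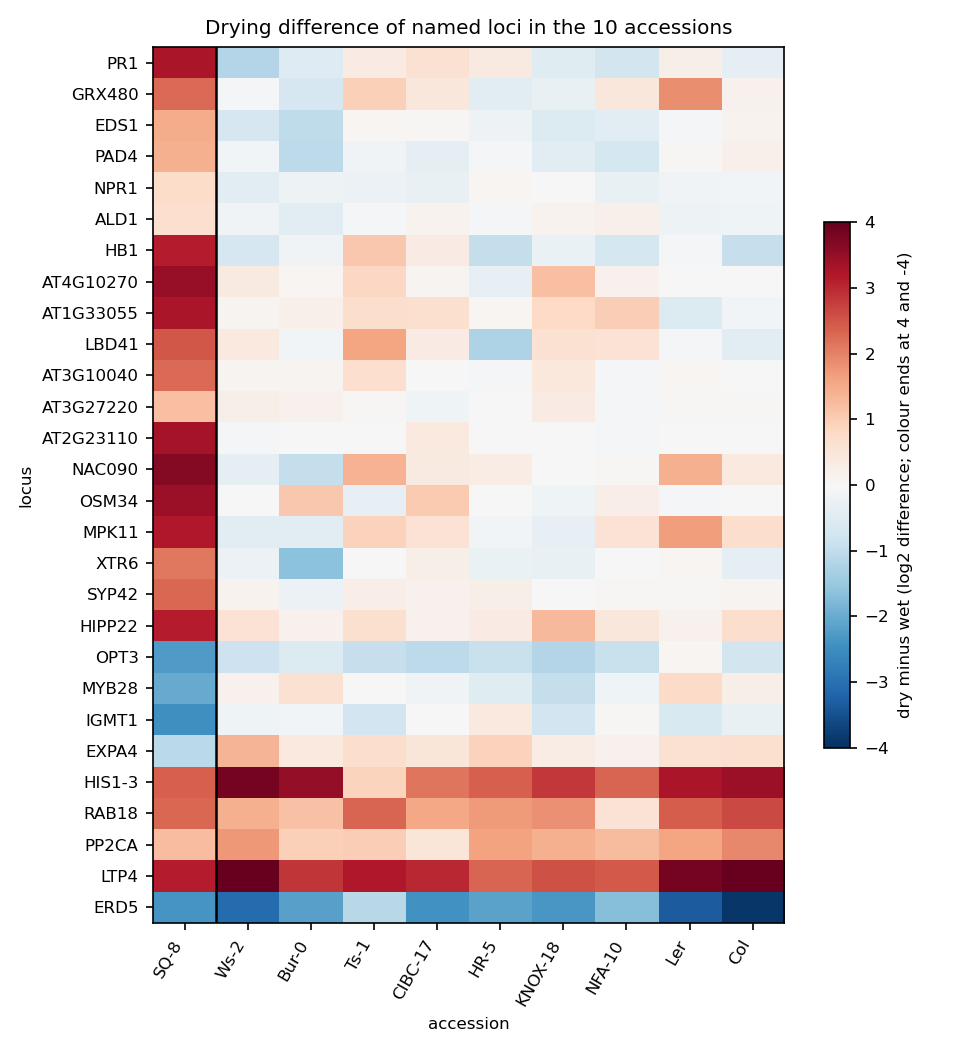
Dry minus wet difference (log2, colour scale) of 28 named loci in SQ-8 and in each of the other 9 accessions. PR1, HB1, AT2G23110 and NAC090 are deep red in SQ-8 only among these columns, while HIS1-3, RAB18, PP2CA and LTP4 are red and ERD5 is blue in all 10.

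Against the mean of CIBC-17, HR-5 and NFA-10, 156 loci (0.753%) passed the limma threshold, 116 higher (0.56%) and 40 lower (0.193%) in SQ-8. The count was 97 without the replicate term, 42 without wet replicate 3, 88 without dry replicate 3 and 262 without dry replicate 1. The split was 192 higher and 36 lower with centred arrays, and 115 higher and 90 lower without wet replicate 2. The smallest p among them were those of AT2G23110, AT1G26390, AT2G38240 and CRK23. Against Bur-0 alone 1572 loci (7.58%) passed, 757 higher (3.65%) and 815 lower (3.93%) in SQ-8, with 906 without the replicate term, 585 without wet replicate 3 and 1016 without dry replicate 2. With centred arrays 73.3% of the calls against Bur-0 were higher in SQ-8 and after quantile normalization 59.3%, instead of 48.2%. In the same fit the number of loci called by drying was 1803 in SQ-8, 1074 in Bur-0 and between 38 (CIBC-17) and 539 (Ws-2) in the other 8, of which KNOX-18 had 2 dry arrays. Without wet replicate 3 the SQ-8 count was 563 and without dry replicate 3 it was 1014, both below the 1074 of Bur-0. The root mean square difference over all loci was 0.446 in SQ-8 and 0.291 to 0.380 in the other 9. Across loci the SQ-8 differences correlated with the mean of the other 9 at r = 0.49, and with single accessions between 0.10 (Bur-0) and 0.56 (CIBC-17). These correlations describe loci measured on one array type with one shared replicate term, and carry no test.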

How the data were processed

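Rosette leaves of 10 accessions on dry (29 arrays) or wet soil (30 arrays) were measured with biotin-labelled RNA on one-colour arrays, and all 59 deposited columns were used. The authors deposited log2 values per locus, while the array design, probe assignment and order of steps are not given in sources used here. Per the submitters' processing notes MAS5 and RMA were used, with no version and no role given. The array medians of the deposited log2 values lay between 5.496 and 5.621, so no further normalization was applied.

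One model over all 59 arrays (20 group means plus the replicate number) was fitted with limma 3.58.1 in R 4.3.3, with 37 residual and 2.265 prior degrees of freedom. Contrasts were SQ-8 dry minus wet, and that difference minus the mean of the other 9 accessions, of CIBC-17, HR-5 and NFA-10, and minus Bur-0. P-values were adjusted by Benjamini-Hochberg over 20728 loci and called under 0.05, with ± the standard error of the fit. Tables and plots used Python 3.11.15, pandas 2.3.3, numpy 2.4.6 and matplotlib 3.10.9. The method was tested on simulated data. Symbols came from the TAIR10.1 reference, which held 20546 loci and lacked 182, and 14 loci with values shared with another locus were tested but not named.

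Loci were named by a rule: the 14 largest rises and 14 largest falls with the same sign in 3 pairs, the 12, 4 and 2 smallest p against the other 9, the 3 accessions and Bur-0, at most 6 members of each gene list with the smallest adjusted p together with those behind a count of 5 or fewer, and a short set of well-known genes. The members, the lists and the tests were chosen with earlier results of these data known, and the low-oxygen and the copper and iron lists after the values were seen. Same-numbered dry and wet arrays deviated together (median correlation 0.28, against -0.116 for other numbers, and over 0.1 in 24 of 29 pairs), but in SQ-8 the 3 values were 0.247, -0.200 and 0.368, so the pairing there rests on the numbering. The array labelled Col wet replicate 3 carries the stock number of Ws-2 and was kept under its title. Some genes are not reported here. Alternatives tried were the fit without the replicate term, with that term within each accession, centring, quantile normalization, dim loci left out, a trended prior, each SQ-8 array left out, SQ-8 alone, and without Col wet replicate 3.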

Additional observations from a re-analysis of the deposited data

Results flagged for a closer look

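The drying differences of SQ-8 and of the other 9 accessions differed at 64 of the named loci, by a test of that difference (limma adjusted p under 0.05, with the SQ-8 value minus the mean of the other 9 given for each). They were listed for that, so their number is no measure of how often it happens; 3.58% of all loci passed.

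Loci with a positive drying difference in SQ-8, whether or not called there, that exceeded the other accessions included AT5G05600 (3.09), NAC090 (3.4), OSM34 (3.22), JAZ10 (2.64), AT2G23110 (3.3), AT3G59350 (2.47), SYP42 (2.22), AT5G25440 (2.39), AT2G38240 (1.95), AT5G44050 (1.88), AT1G26390 (1.85), SBT3.3 (1.65), CRK23 (1.57), AT3G46500 (1.1), AT2G01090 (1.03) and AT4G30640 (0.80). In the low-oxygen and the copper and iron lists these were HB1 (3.41), AT4G10270 (3.22), AT1G33055 (2.94), LBD41 (2.31), AT3G10040 (2.14), AT3G27220 (1.13) and HIPP22 (2.64). In defence and early stress they were PR1 (3.46), EDS1 (1.77), PAD4 (1.7), NPR1 (0.90), ALD1 (0.73), MPK11 (2.86), CRK11 (1.48), AT5G62570 (1.39) and CYP94C1 (1.72). In cell walls, sugar uptake, cytokinin breakdown and early phenylpropanoid synthesis they were XTR6 (2.4), XTH18 (2.34), XTH25 (1.43), STP1 (1.58), CKX4 (0.98) and C4H (1.32). In dehydration, heat shock, senescence and vascular marker lists they were ERD7 (2.08), LEA7 (1.27), AT5G48570 (2.54), HSP17.6A (2.5), Hop3 (1.18), YLS9 (1.63), BCB (1.57), SAG21 (1.01) and PP2-B10 (1.0). PP2-B10 was not called in SQ-8 dry minus wet, where it differed by 0.80.

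Loci lower in SQ-8 than the mean of the others were GLN1;4 (-2.74), AT1G73600 and AT1G73602 (-2.74 each), IGMT1 (-2.19), MYB28 (-2.03), APL3 (-1.89), EXPA4 (-1.69), OPT3 (-1.51), KCS6 (-0.95), BCAT3 (-0.90), HTA2 (-0.81), IAA13 (-0.76), HK2 (-0.74), HA1 (-0.62), EIN2 (-0.60), MSD1 (-0.50) and IAA11 (-0.44). Without the replicate term 23 of the 64 did not pass.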

How the results depend on the processing

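Single SQ-8 arrays moved the counts by over 1.5 times, and the cause was not tested. Leaving out 1 array gave between 563 and 1749 loci for SQ-8 dry minus wet, between 100 and 953 against the other 9 accessions, between 42 and 262 against CIBC-17, HR-5 and NFA-10, between 585 and 1821 against Bur-0, and between 54 and 146 called list memberships, with the lowest count in each case without wet replicate 3. In all 6 leave-outs 422 of the 1803 loci were called. Without the replicate block, the unpaired fit called 1025, 354, 97 and 906 loci in these contrasts and 80 memberships. With a log2 difference of at least 1 required as well, 637, 262, 97 and 790 loci remained, by construction. SQ-8 fitted alone gave 0 calls with limma (4325 at an unadjusted p under 0.05), with 2 residual degrees of freedom for the spread. Why no call was left was not tested. The replicate block within each accession, centring, quantile normalization, leaving out 5182 dim loci and the trended prior kept these counts within 1.5 times. Leaving out Col wet replicate 3 gave 1823 loci for SQ-8 dry minus wet and 706 against the other 9 accessions. It gave 161 against CIBC-17, HR-5 and NFA-10, and 1559 against Bur-0. Of the named results, 75 were lost without the block and 100 without wet replicate 3, and no called locus among them changed sign under the alternatives run. Medians of 9 lists that lay within 0.1 of 0 changed sign under at least 1 of them, and the split of higher and lower calls moved on centring. Values below 4.22 on the scale limit what differences can be seen.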
